A study of Mus musculus with 12 samples.

Results

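RNA from mouse melanomas was examined for 10 genes that mark dendritic cells and their subsets, chosen by name and found in all 12 libraries among 34989 genes. They are Zbtb46 and Flt3, shared by conventional dendritic cells; Batf3, Clec9a, Xcr1 and Itgae, markers of the cDC1 subset; Cd209a, a marker of the cDC2 subset and of monocyte-derived dendritic cells; Ccr7 and Fscn1, markers of mature dendritic cells; and Siglech, a marker of plasmacytoid dendritic cells. The labels call the sequenced cells tumor-associated macrophages, and the series is about joint effects of myeloid-directed therapies on inflammation. All mice carried the same inducible melanoma alleles, recombined by a drug-activated Cre that a melanocyte promoter drives.

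The 4 groups held 3 libraries each, and every library pooled at least 3 tumors. The combination group received CSF1Ri chow (PLX6134, whose label is read as inhibition of the CSF1 receptor, at 600 mg/kg of chow) together with the CD40 agonist (the antibody FGK4.5, 10 mg/kg by intraperitoneal injection every 3 days, for up to 10 doses). The CD40 agonist group received the antibody without the inhibitor, the CSF1Ri group received the chow without the antibody, and the Control group received neither. Treatment began 30 days after tumor induction. It lasted 30 days or until the 2 cm3 endpoint. The labels used here name neither the age of the mice nor a sorting gate for the sequenced cells.

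Dendritic cells take up antigen in tissue, move to the draining lymph node and present the antigen to T cells. The growth factor receptor Flt3 drives their development from bone marrow progenitors, and the cDC1 and cDC2 lineages separate under different transcription factors. cDC1 cells are known for presenting tumor antigen to CD8 T cells, and cDC2 cells for priming CD4 T cells. On maturation, which signals through CD40 promote, dendritic cells raise the chemokine receptor Ccr7 and the actin-bundling protein Fscn1 and leave the tissue. Plasmacytoid dendritic cells are known as producers of type I interferon.

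Library totals ran from 34168389 to 39818657 estimated counts in the combination, 26316328 to 33948213 with the CD40 agonist, 26665394 to 32880763 with CSF1Ri and 28709482 to 31698533 in Control. A pair of libraries stood apart from their groups over all genes. On the second principal component, combination replicate 2 lay at -106 against -32.5 and -55.6 for the other combination libraries, and CSF1Ri replicate 3 lay at 32.7 against -22.2 and -24 for the other CSF1Ri libraries. The calls of the members and the main calls of the lists are given with and without them. The macrophage list of 11 genes summed to 1416 to 1588 TPM in the combination, 1838 to 2830.1 with the CD40 agonist, 1322 to 1519.5 with CSF1Ri and 1598 to 1706 in Control, with Cd68 at 607 to 1011 TPM over the 12 libraries. Its complement genes were uneven: C1qc, for example, stood at 78, 3.96 and 38.6 TPM in the combination, 36.8, 72.6 and 141 TPM with the CD40 agonist, 1.08, 0 and 6.4 TPM with CSF1Ri and 20, 29.3 and 31.3 TPM in Control. TPM is a transcript level corrected for length and scaled to the same total in each library, and it is the scale on which genes are compared with each other here. The melanocyte list of 6 genes reached at most 93.3 summed TPM in any library.

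The members spanned more than 2 orders of magnitude in level. On the TPM scale Ccr7 was highest, from 47.7 to 582 over the 12 libraries, followed by Cd209a (0.0583 to 326), Fscn1 (22.2 to 244) and Batf3 (20.2 to 144). Flt3 ran from 1.1 to 48.6 TPM and Zbtb46 from 0.949 to 7.23 TPM. The remaining cDC1 genes and the plasmacytoid gene were low, with Itgae at 0.465 to 9.3, Xcr1 at 0.991 to 5.79, Siglech at 0.122 to 3.52 and Clec9a at 0 to 2.78 TPM. The mature genes and Batf3 were thus far above the cDC1 surface markers in every library. In libraries of mixed cells, fewer cells of a type and less RNA per cell cannot be told apart.

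**Figure D1:**
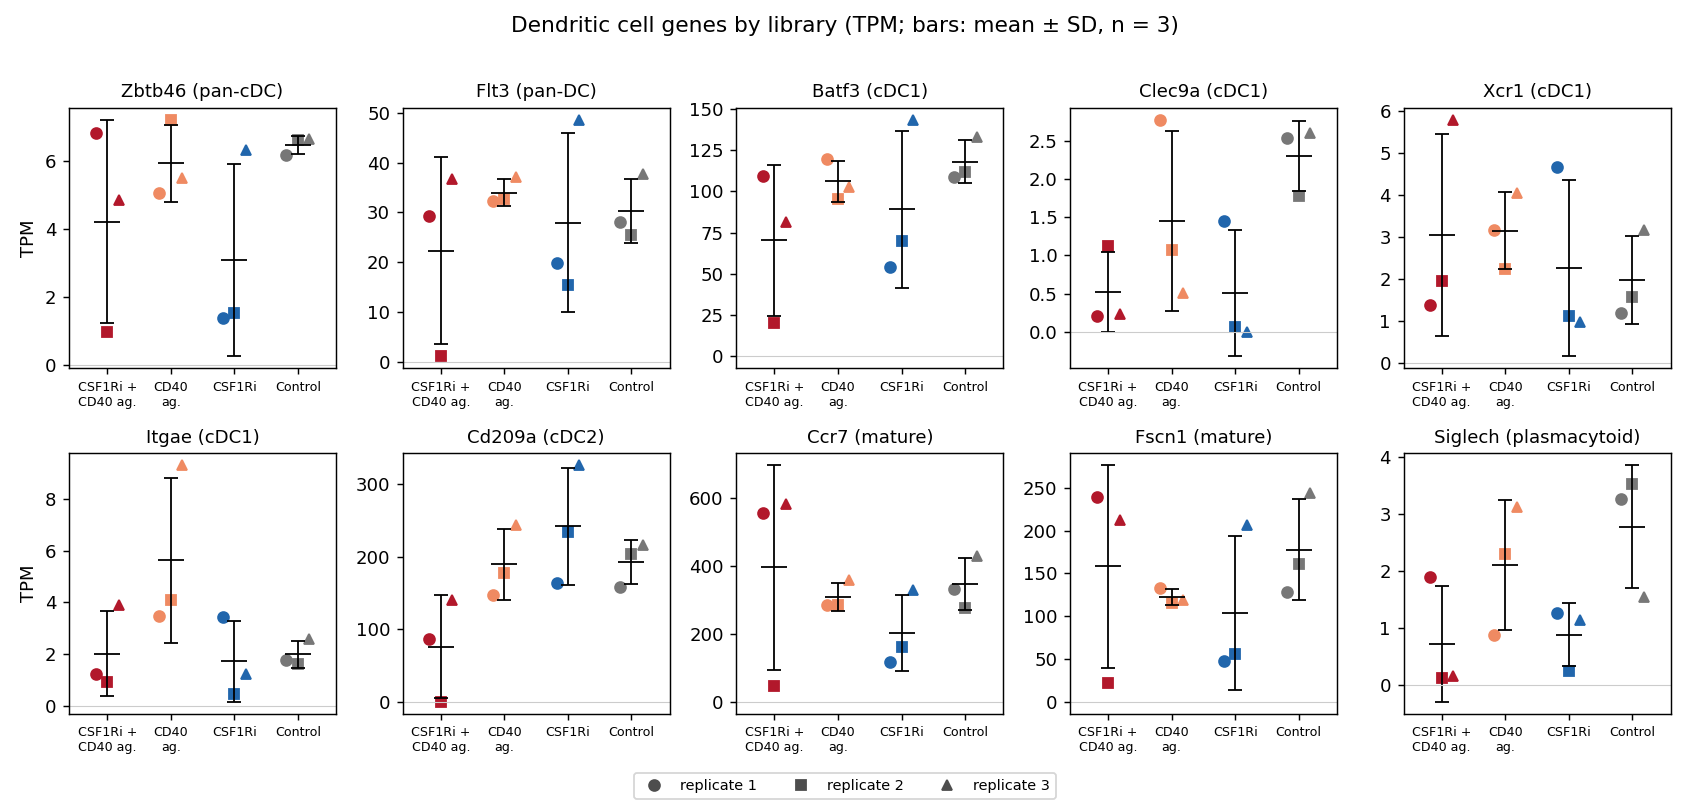
Level of each of the 10 genes (TPM, linear axis from each gene's own range) in the 12 libraries, with the 4 groups along the horizontal axis, 1 symbol per replicate and black bars for the mean ± SD of 3 libraries. Combination replicate 2 was the lowest library of its group for 8 of the 10 genes, and CSF1Ri replicate 3 the highest of its group for 6.

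With all 12 libraries, 0 of the 10 members passed the test in each of 8 comparisons. The test was edgeR's quasi-likelihood test across 16027 genes, and a member is called where its Benjamini-Hochberg adjusted p is below 0.05. Over all genes, 0.774% were called for the combination versus Control, 0% for the CD40 agonist versus Control, 0.0125% for CSF1Ri versus Control, 0% for the combination versus the CD40 agonist, 1.94% for the combination versus CSF1Ri, 0.387% for the CD40 agonist versus CSF1Ri, 0% for the interaction of both agents and 1.2% for any difference among the groups. Itgae in the CD40 agonist group versus CSF1Ri was the member and comparison with the lowest adjusted p, 0.319, and the only pairwise result of a member with an unadjusted p (0.0351) under 0.05. DESeq2 and limma voom also called 0 members in each comparison. The biological coefficient of variation over all genes was 61%.

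Of the genes shared by conventional dendritic cells, Zbtb46 encodes a transcription factor restricted to that lineage among leukocytes. Zbtb46 stood at 6.84, 0.949 and 4.85 TPM in combination replicates 1 to 3, at 5.07, 7.23 and 5.52 TPM with the CD40 agonist, at 1.38, 1.51 and 6.35 TPM with CSF1Ri and at 6.18, 6.62 and 6.66 TPM in Control. Control was the tightest group, and low values came from CSF1Ri replicates 1 and 2 and from combination replicate 2. All 4 groups overlapped. The log2 fold change, from edgeR on counts, was -1.03 ± 0.63 (SE) for CSF1Ri versus Control, with an adjusted p of 0.667. Without the pair of libraries that stand apart it was -2.08 ± 0.30, with an adjusted p of 0.00991.

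Flt3 encodes the receptor for the growth factor Flt3l. Flt3 stood at 29.2, 1.1 and 36.6 TPM in the combination, 32.2, 32.8 and 37 TPM with the CD40 agonist, 19.8, 15.4 and 48.6 TPM with CSF1Ri and 28, 25.4 and 37.6 TPM in Control. In combination replicate 2 it was 30 times below the mean of the other combination libraries, and CSF1Ri held both the highest value of all 12 libraries and 2 of the lower ones. Group means were 22.3 ± 18.7, 34 ± 2.64, 28 ± 18 and 30.3 ± 6.45 TPM (SD, n = 3 each) in the combination, CD40 agonist, CSF1Ri and Control groups, so no neighbours in the order of means differed beyond their spread.

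Batf3 encodes a transcription factor required for cDC1 development, which activated T cells and other dendritic cells also express. Batf3 stood at 109, 20.2 and 81.4 TPM in the combination, 119.9, 95.7 and 103 TPM with the CD40 agonist, 53.9, 69.9 and 144 TPM with CSF1Ri and 109, 112 and 133 TPM in Control. The same libraries as for Zbtb46 were low, and all 4 groups overlapped. The log2 fold change was -0.41 ± 0.50 for CSF1Ri versus Control (adjusted p = 0.89), and -0.91 ± 0.21 without the pair of libraries that stand apart (adjusted p = 0.07).

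Clec9a, Xcr1 and Itgae are surface proteins of cDC1 cells. Clec9a binds actin filaments of dead cells, Xcr1 is the receptor of the chemokine Xcl1, and Itgae is the CD103 integrin chain, which binds the adhesion protein Cdh1 and is also carried by tissue T cells. Clec9a stood at 0.21, 1.13 and 0.232 TPM in the combination, 2.78, 1.07 and 0.511 TPM with the CD40 agonist, 1.45, 0.0553 and 0 TPM with CSF1Ri and 2.53, 1.78 and 2.61 TPM in Control. The combination and CSF1Ri values all lay below Control on this scale, as did those of 17.1% and 8.01% of all genes in the combination and in CSF1Ri, but they rest on 15, 67 and 24 counts in the combination and on 107, 1 and 0 counts with CSF1Ri, against 40, 81 and 119 counts in Control. On CPM, counts scaled to library size by TMM and not corrected for length, the groups overlapped, with 0.408, 2.27 and 0.613 CPM in the combination, 3.63, 0.0375 and 0 CPM with CSF1Ri and 1.22, 2.56 and 3.98 CPM in Control. In CSF1Ri replicate 3 the limit that 0 counts allow (3 counts, for counting error only) was 0.0874 CPM. Clec9a overlaps Clec1b on the same strand, which stood at 0.0233 to 1.97 TPM over the 12 libraries, so the division of reads between them is uncertain.

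Xcr1 stood at 1.38, 1.96 and 5.79 TPM in the combination, 3.17, 2.24 and 4.05 TPM with the CD40 agonist, 4.68, 1.12 and 0.991 TPM with CSF1Ri and 1.19, 1.59 and 3.18 TPM in Control. Every pair of groups overlapped, and the highest libraries were combination replicate 3 and CSF1Ri replicate 1. Itgae stood at 1.23, 0.936 and 3.91 TPM in the combination, 3.47, 4.11 and 9.3 TPM with the CD40 agonist, 3.46, 0.465 and 1.24 TPM with CSF1Ri and 1.78, 1.64 and 2.6 TPM in Control. All CD40 agonist values of Itgae lay above every Control and every CSF1Ri value, though by a small margin over CSF1Ri replicate 1.

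Itgae was 1.56 ± 0.73 higher on the log2 scale in the CD40 agonist group than in Control (adjusted p = 0.653) and 1.77 ± 0.74 higher than in CSF1Ri (adjusted p = 0.319), values that did not pass the test. Non-overlap of this kind, with the CD40 agonist group higher, held for 6.57% of all genes against Control and 8.93% against CSF1Ri. Itgae overlaps Haspin on the other strand, and the libraries carry no strand, so its reads and those of Haspin (0.277 to 6.76 TPM with the CD40 agonist) could not be fully told apart. The T cell list of 10 genes summed to 83.6 to 149 TPM with the CD40 agonist, 46.7 to 60.1 TPM with CSF1Ri and 90.4 to 129 TPM in Control. It therefore moved with Itgae against CSF1Ri, where its part was not tested, and overlapped between the CD40 agonist and Control.

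Cd209a, a C-type lectin, was the single cDC2 member. It had the widest range of the 10 on the log2 scale, which rested on combination replicate 2. Cd209a stood at 86.4, 0.0583 and 141 TPM in the combination, 147, 177 and 243 TPM with the CD40 agonist, 164, 234 and 326 TPM with CSF1Ri and 159, 204 and 216 TPM in Control. Each combination value lay below every value of the other groups, and combination replicate 2 held 2 counts of Cd209a. Non-overlap with the combination lower held for 17.1% of all genes against Control, 9.43% against the CD40 agonist and 16.9% against CSF1Ri.

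The fold changes of Cd209a did not pass the test. They were -1.21 ± 1.14 on the log2 scale for the combination versus Control (adjusted p = 0.684), -1.26 ± 1.14 versus the CD40 agonist (adjusted p = 0.844) and -1.54 ± 1.15 versus CSF1Ri (adjusted p = 0.519). Without the pair of libraries that stand apart they were -0.63 ± 0.27, -0.67 ± 0.27 and -0.68 ± 0.30, with adjusted p values of 0.321, 0.478 and 0.237. The remaining combination libraries were thus lower by less, and with a smaller error.

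Ccr7 is the receptor for the chemokines Ccl19 and Ccl21a, and guides mature dendritic cells to the lymph node. Ccr7 stood at 556, 47.7 and 582 TPM in the combination, 285, 284 and 357 TPM with the CD40 agonist, 118, 160.4 and 328 TPM with CSF1Ri and 332, 277 and 429 TPM in Control. Combination replicates 1 and 3 were the highest of the 12 libraries and combination replicate 2 the lowest. Group means were 395 ± 301 TPM in the combination, 309 ± 42.2 with the CD40 agonist, 202 ± 111 with CSF1Ri and 346 ± 76.8 in Control (SD, n = 3 each).

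Fscn1, which bundles actin in the processes of mature dendritic cells, followed a like pattern. Fscn1 stood at 239, 22.2 and 213 TPM in the combination, 133, 116 and 119 TPM with the CD40 agonist, 47.7, 55.8 and 207 TPM with CSF1Ri and 129, 161 and 244 TPM in Control. Here the highest library was Control replicate 3, and combination replicates 1 and 3 lay above all CD40 agonist libraries. The CD40 agonist group had the smallest spread.

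The log2 fold changes of the mature genes with all libraries were 1.13 ± 0.66 for Ccr7 and 0.79 ± 0.72 for Fscn1 in the combination versus CSF1Ri (adjusted p = 0.395 and 0.607), and -0.78 ± 0.65 and -0.73 ± 0.72 in CSF1Ri versus Control (adjusted p = 0.79 and 0.844). Without combination replicate 2 alone, Ccr7 passed in the combination versus CSF1Ri, at 1.65 ± 0.34 (adjusted p = 0.0353), where 2.55% of 16831 genes were called. Fscn1 then stood at 1.30 ± 0.53 (adjusted p = 0.231).

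Siglech encodes a surface lectin of plasmacytoid dendritic cells. Siglech stood at 1.9, 0.122 and 0.164 TPM in the combination, 0.875, 2.3 and 3.12 TPM with the CD40 agonist, 1.26, 0.25 and 1.14 TPM with CSF1Ri and 3.27, 3.52 and 1.55 TPM in Control. CSF1Ri values lay below every Control value, a pattern that held for 8.01% of all genes in that direction, and the combination overlapped Control through combination replicate 1. The log2 fold changes were -1.80 ± 1.14 for the combination versus Control (adjusted p = 0.499) and -1.86 ± 1.14 for CSF1Ri versus Control (adjusted p = 0.667). Counts ran from 5 to 175 per library, and 57.4% of them over the 12 libraries lay on Siglech-204, a transcript annotated as subject to nonsense-mediated decay.

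The same libraries set the extremes of most members. Combination replicate 2 lay below both other combination libraries in 8 of the 10 members, against 40.5% of all genes, and was the lowest of all 12 libraries in 7, against 20.8% of all genes. Relative to the mean of the other combination libraries it was 11.9 times lower for Ccr7, 10.2 times for Fscn1, 6.16 times for Zbtb46 and 4.73 times for Batf3. Clec9a was 5.1 times higher there. CSF1Ri replicate 3 lay above both other CSF1Ri libraries in 6 members, against 36.4% of all genes, by 4.4 times for Zbtb46, 4 times for Fscn1, 2.76 times for Flt3, 2.35 times for Ccr7, 2.32 times for Batf3 and 1.63 times for Cd209a.

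**Figure D2:**
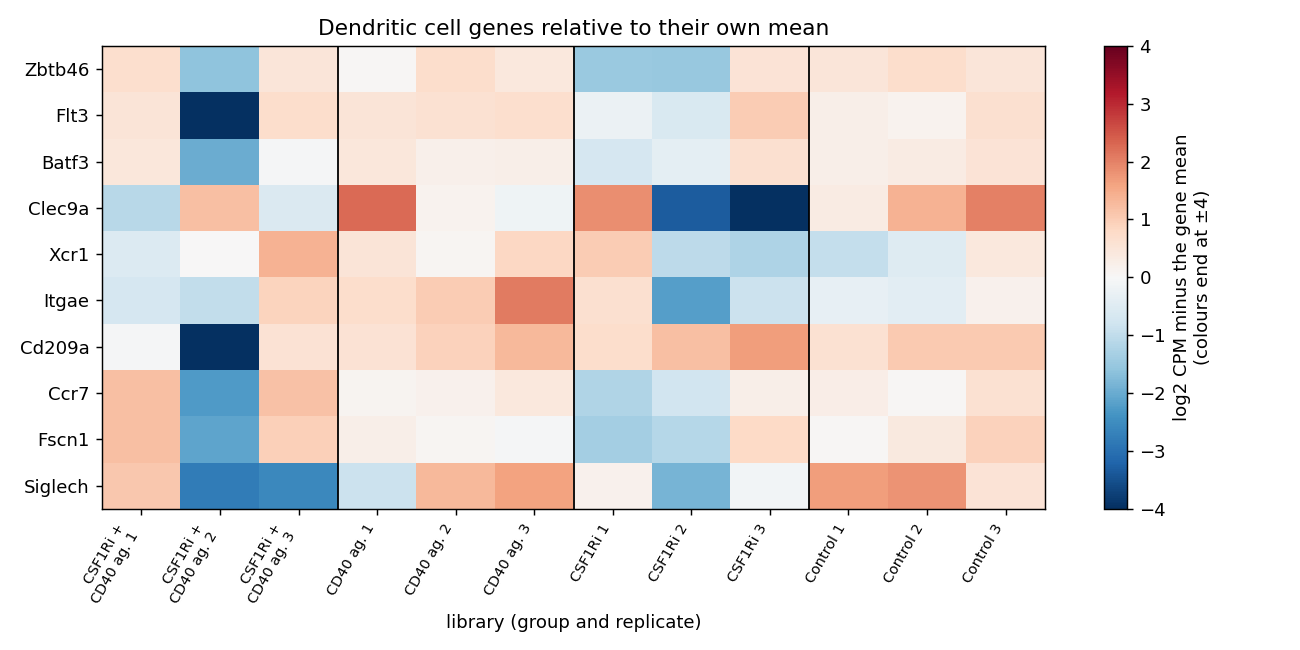
Log2 CPM of each gene minus that gene's mean over the 12 libraries, with libraries as columns grouped by treatment and genes as rows (red above, blue below the mean, colours ending at ±4). The columns of combination replicate 2 and of CSF1Ri replicates 1 and 2 are blue for Zbtb46, Batf3, Ccr7 and Fscn1, while CSF1Ri replicate 3 resembles Control in those rows.

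Marker lists of other cells also differed between some of these libraries. The monocyte list of 8 genes summed to 3648, 12718 and 4697 TPM in combination replicates 1 to 3, against 5383 to 5498 TPM with CSF1Ri and 4921 to 5319 TPM in Control. Within that list Plac8, Ly6c2 and Ccr2 carried most of the high sum, at 6930.1, 4219.6 and 1137 TPM in combination replicate 2, while Ace was at its lowest of the 12 libraries there, at 9.14 TPM. The neutrophil list of 6 genes summed to 7604, 5124 and 1483 TPM in CSF1Ri replicates 1 to 3, against 1201 to 3171 TPM in Control. In combination replicates 1 to 3 it summed to 1110, 2482 and 2935 TPM, an order that did not follow that of Ccr7. Summed levels of the dendritic cell lists were not all low in combination replicate 2. In combination replicates 1 to 3 the cDC1 list summed to 1950, 2198 and 2061 TPM. The plasmacytoid list summed to 594, 1004 and 940 TPM. Few genes carried these sums, with means over the 12 libraries of 1257 TPM for Id2 (cDC1) and 742 TPM for Pld4 (plasmacytoid). Of the cDC1 list, Irf8, Naaa and Ifi205 were at their highest in combination replicate 2, and Batf3 and Wdfy4 at their lowest. Of the plasmacytoid list, Pld4 was at its highest there, and Siglech, Tcf4, Ccr9, Runx2 and Smim5 at their lowest. The mature list summed to 4441, 1054 and 4684 TPM, and the cDC2 list to 1022, 671 and 1295 TPM. The list shared by conventional dendritic cells summed to 529, 366 and 659 TPM. The combination library low in Flt3, Cd209a, Ccr7 and Fscn1 was thus the one with the highest sum of the monocyte list. The CSF1Ri libraries low in Zbtb46, Ccr7 and Fscn1 were those high in neutrophil markers. The part of these markers in the member values was not tested.

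**Figure D3:**
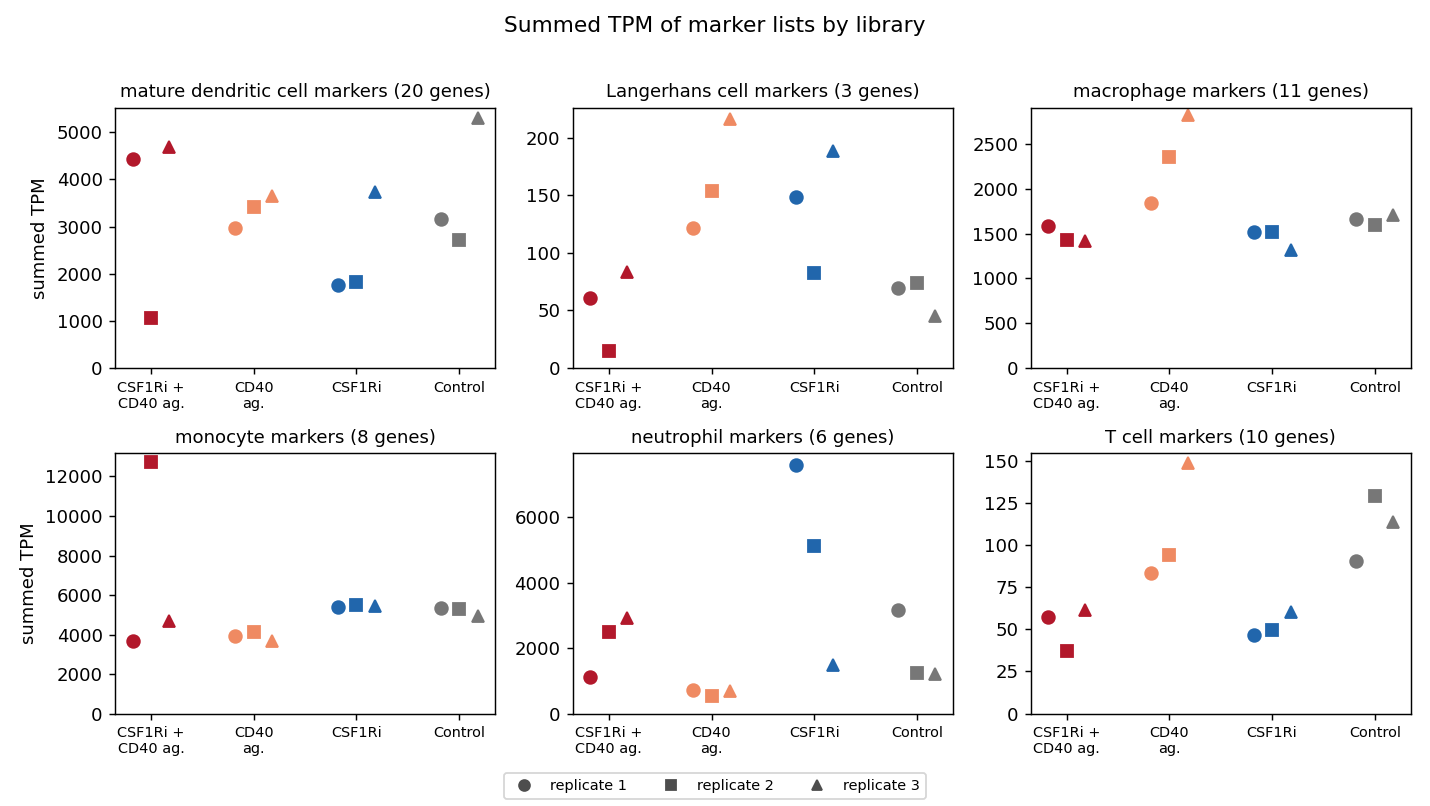
Summed TPM of 6 marker lists in the 12 libraries, by group along the horizontal axis and 1 symbol per replicate, each panel starting at 0. Combination replicate 2 is low in the mature dendritic cell list (1054 TPM) and high in the monocyte list (12718 TPM), and CSF1Ri replicates 1 and 2 are high in the neutrophil list (7604 and 5124 TPM).

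Without the pair of libraries that stand apart, which leaves 2 libraries each in the combination and CSF1Ri groups, members passed in 5 comparisons. Both libraries were chosen with the members' values known, so these calls describe the remaining 10 libraries. In CSF1Ri versus Control 3 of 10 members were called, all lower, where 2.03% of 16635 genes were called: Zbtb46 at -2.08 ± 0.30, Fscn1 at -1.75 ± 0.24 and Ccr7 at -1.30 ± 0.19 on the log2 scale (adjusted p = 0.00991, 0.00877 and 0.0111). In the combination versus CSF1Ri 4 were called, all higher, against 3.8% of genes: Fscn1 at 2.32 ± 0.26, Ccr7 at 2.17 ± 0.21, Zbtb46 at 2.10 ± 0.31 and Flt3 at 1.03 ± 0.21 (adjusted p = 0.00551, 0.00444, 0.00982 and 0.028).

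The same 4 genes were called higher in the CD40 agonist versus CSF1Ri, against 3.01% of genes, with Zbtb46 at 1.94 ± 0.30, Fscn1 at 1.33 ± 0.24, Ccr7 at 1.22 ± 0.19 and Flt3 at 1.02 ± 0.19 (adjusted p = 0.0111, 0.0214, 0.0121 and 0.0286). These comparisons share the CSF1Ri libraries. The interaction, which is the effect of the CD40 agonist with CSF1Ri present minus its effect without it, was called for Fscn1 (2.74 ± 0.33) and Ccr7 (2.26 ± 0.26), both with an adjusted p of 0.0315, against 0.397% of genes. The test of any difference among the groups called Ccr7, Fscn1 and Zbtb46 (adjusted p = 0.00616, 0.00863 and 0.0197), against 3.88% of genes.

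No member was called in the combination versus Control without those libraries, where 1.39% of genes were. Ccr7 was the nearest, at 0.87 ± 0.18 (adjusted p = 0.0549). In the combination versus the CD40 agonist, where 0.0481% of genes were called, Ccr7 stood at 0.96 ± 0.18 and Fscn1 at 0.99 ± 0.22 (adjusted p = 0.127 and 0.179). In the CD40 agonist versus Control 0 members were called, against 0.228% of genes. Batf3, Clec9a, Xcr1, Itgae, Cd209a and Siglech were called in none of the comparisons, with or without the 2 libraries.

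**Figure D4:**
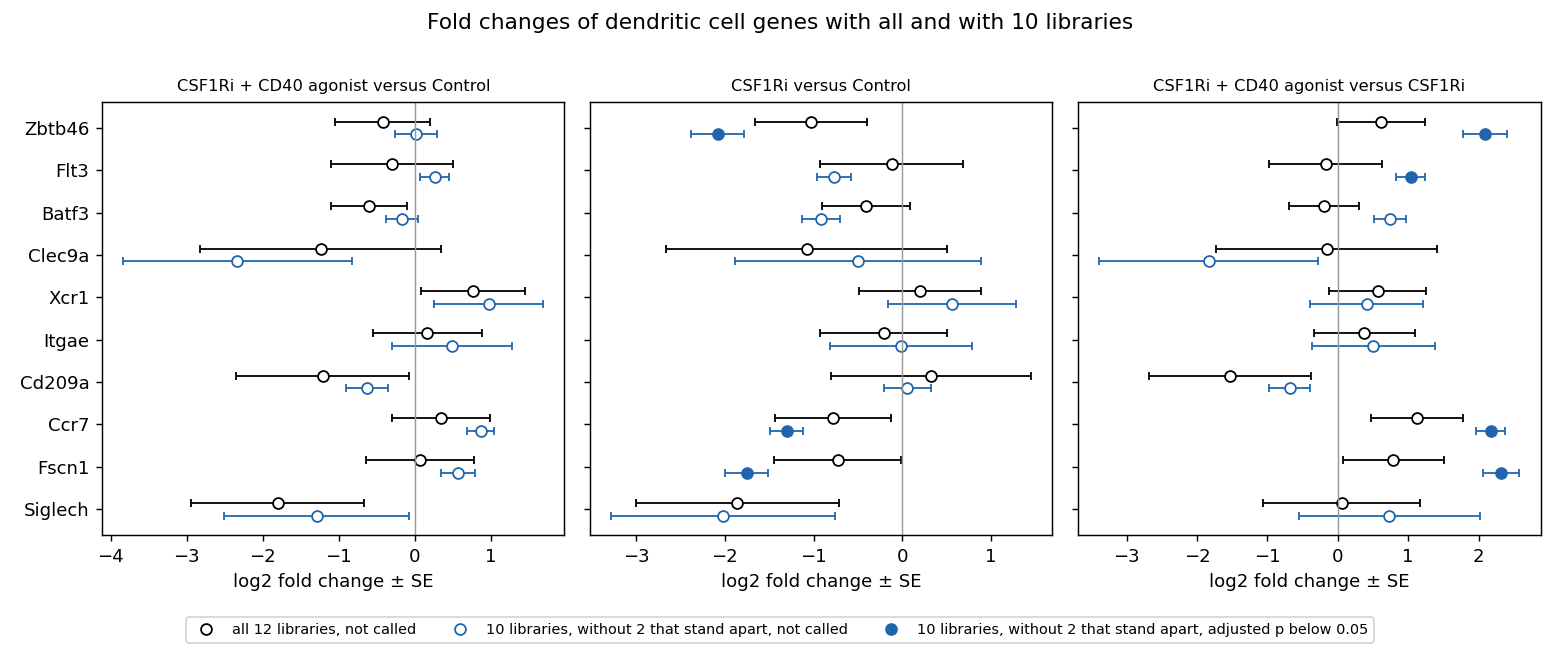
Log2 fold change ± SE of the 10 genes in 3 comparisons, from all 12 libraries (black) and from the 10 libraries without the pair that stand apart (blue), filled where the adjusted p is below 0.05. Filled points appear only among the 10-library values, for Zbtb46, Ccr7 and Fscn1 in CSF1Ri versus Control and for those and Flt3 in the combination versus CSF1Ri.

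Some members varied together over libraries. Pearson's r of log2 CPM (prior count 2) over the 12 libraries was 0.734 to 0.954 among the 10 pairs of Zbtb46, Flt3, Batf3, Ccr7 and Fscn1, and 0.666 to 0.924 over the 11 libraries without combination replicate 2. Ccr7 and Fscn1 were closest, at 0.954 and, without that library, 0.924. The ratio of Ccr7 to Fscn1 in TPM stayed between 1.58 and 3.01 in all 12 libraries. Among Clec9a, Xcr1 and Itgae r was 0.477 to 0.773, and between these and the other 5 it was -0.188 to 0.407. Batf3, although a cDC1 gene, therefore varied with the shared and mature genes and not with the other cDC1 markers. These are descriptions over libraries that share their treatments, and the sets were formed after the values were seen.

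**Figure D5:**
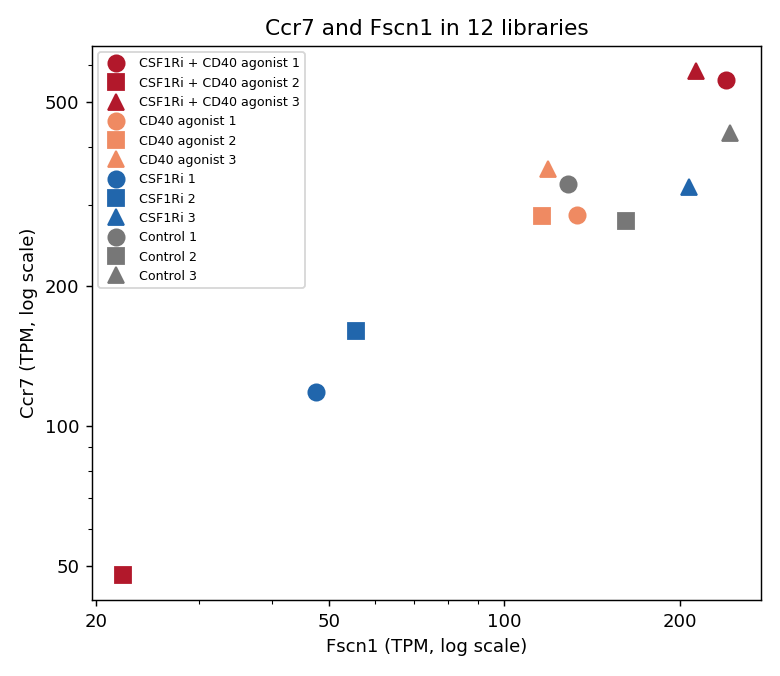
Ccr7 against Fscn1 (TPM, both axes logarithmic) in the 12 libraries, coloured by group and with 1 symbol per replicate. The libraries lie along a common line from combination replicate 2 (22.2 TPM Fscn1, 47.7 TPM Ccr7) through CSF1Ri replicates 1 and 2 to combination replicates 1 and 3.

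Cd209a kept step with Flt3 only through combination replicate 2. Their r was 0.94 over 12 libraries and 0.0931 without combination replicate 2, and the ratio of Cd209a to Flt3 in TPM was 0.0531 in that library against a median of 5.7 over all 12. With Ccr7, Cd209a had r = 0.681 over 12 libraries and -0.345 without that library. Its correlations therefore rested on a single library, in which it was nearly absent.

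The bases upstream of the start are shown for Flt3 and Fscn1, members that varied together, and for Cd209a, which varied with them only through combination replicate 2. They are RefSeq windows on GRCm38.p6, cut to end before the gene's start in GENCODE M21, read 5′ to 3′ on the gene's strand. RefSeq windows were at hand for 8 of the 10 members, and 6 of them lay upstream of the GENCODE start. Capitals mark a match to a motif searched on both strands: TGACGTCA (CRE), TGANTCA (AP-1), GAGGAAG (PU.1) or the NF-kB motif. Flt3 lies at chr5:147330741-147400489 on the minus strand, Fscn1 at chr5:142960343-142973185 on the plus strand and Cd209a at chr8:3743397-3748984 on the minus strand, all protein coding.
Fscn1, chr5:142960105-142960342 (plus strand): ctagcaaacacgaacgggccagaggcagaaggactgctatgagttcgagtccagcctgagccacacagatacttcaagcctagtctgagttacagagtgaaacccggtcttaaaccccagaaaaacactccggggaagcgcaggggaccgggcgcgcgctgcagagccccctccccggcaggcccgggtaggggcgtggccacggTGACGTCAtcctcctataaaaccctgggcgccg
Flt3, chr5:147400490-147400739 (minus strand): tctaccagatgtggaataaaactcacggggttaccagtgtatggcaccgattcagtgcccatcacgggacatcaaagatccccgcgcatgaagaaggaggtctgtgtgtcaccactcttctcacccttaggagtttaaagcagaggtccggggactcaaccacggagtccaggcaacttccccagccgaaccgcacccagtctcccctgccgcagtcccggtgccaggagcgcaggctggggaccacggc
Cd209a, chr8:3748985-3749234 (minus strand): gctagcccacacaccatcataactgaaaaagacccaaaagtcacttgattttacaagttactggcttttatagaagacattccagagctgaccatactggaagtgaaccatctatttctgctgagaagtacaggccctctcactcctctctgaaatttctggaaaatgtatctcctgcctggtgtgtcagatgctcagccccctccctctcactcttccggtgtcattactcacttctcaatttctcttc
The CRE letters were found in the Fscn1 window, with their first base 33 bases before its end, and in 1.55% of 32851 RefSeq windows of 250 bases. No other match was found in the 6 member windows, while AP-1 letters were found in 6.75%, PU.1 letters in 10.6% and the NF-kB motif in 3.9% of all windows. The Fscn1 match overlapped no other motif.

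By the fixed rule of the 3 genes with the highest r over 12 libraries, Ccr7 was most like Nudt17, Smyd2 and Ccl22 (0.97, 0.967 and 0.948) and Fscn1 most like Akap2, Tmem123 and Ccl22 (0.969, 0.967 and 0.963). Zbtb46 was most like Nostrin, Gnb4 and Tnfsf8 (0.97, 0.961 and 0.954), Flt3 like Stat4, Adcy6 and Ccl17 (0.974, 0.964 and 0.96) and Batf3 like Thap2, Adcy6 and Mreg (0.954, 0.95 and 0.947). Ccl17 and Ccl22, chemokines of mature dendritic cells that attract T cells, thus stood among the nearest genes of 3 members. Cd209a was most like Colec12, Irf4 and Cd209d (0.979, 0.977 and 0.976), but without combination replicate 2 these fell to 0.625, 0.371 and 0.253. The nearest genes of Clec9a were Ftsj3, Napb and Cd300c (0.868, 0.865 and 0.855), of Xcr1 Gm48805, Sephs1 and Adamtsl1 (0.853, 0.842 and 0.838), of Itgae Sephs1, Blnk and Slc36a2 (0.915, 0.879 and 0.868) and of Siglech Cited4, Gm14434 and Susd3 (0.922, 0.9 and 0.886).

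Wider lists place the members beside their subsets. Of 20 mature dendritic cell genes, 19 were higher in the combination versus CSF1Ri (median log2 fold change 0.66, against 0.02 over all genes) and 2 of the 20 were called, against 1.94% of all genes. In CSF1Ri versus Control 18 were lower (median -0.70, against -0.01 over all genes) and 0 were called. In the interaction 17 were higher (median 1.01, against 0.02 over all genes) and 0 were called. Without the pair of libraries that stand apart, 11 were called higher in the combination versus CSF1Ri (median 1.42, against 0.01 over all genes), 6 lower in CSF1Ri versus Control (Cacnb3, Fscn1, Ccl17, Ccr7, Zmynd15 and Apol7c, list median -1.12, against -0.04 over all genes) and 3 higher in the interaction (Cacnb3, Fscn1 and Ccr7, list median 1.85, against 0.02 over all genes). All genes were called at 3.8%, 2.03% and 0.397% in those comparisons. In the combination versus Control 1 mature gene, Il12b, was then called, and in the CD40 agonist versus CSF1Ri the same 6 genes as in CSF1Ri versus Control were called higher, in comparisons that share the CSF1Ri libraries. Over all genes, 1.39% were called in the combination versus Control and 3.01% in the CD40 agonist versus CSF1Ri. The list holds Ccr7 and Fscn1 and shares their low libraries, with summed levels of 4441, 1054 and 4684 TPM in the combination, 2970.3 to 3653 TPM with the CD40 agonist, 1751, 1814 and 3745 TPM with CSF1Ri and 2713 to 5308 TPM in Control.

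With all 12 libraries the called mature genes were Il12b, a subunit of the cytokine IL-12 that promotes T helper type 1 responses, and Marcksl1, an actin-binding protein. Il12b stood at 146, 12.9 and 126 TPM in the combination, 10.1, 26.7 and 35.1 TPM with the CD40 agonist, 1.57, 6.73 and 6.24 TPM with CSF1Ri and 13.5, 6.75 and 7.77 TPM in Control. The combination and CSF1Ri did not overlap, with combination replicates 1 and 3 far above all others. Over all genes, the combination lay below CSF1Ri without overlap in 16.9%, and the share above is not given here. Il12b was 4.45 ± 0.88 higher on the log2 scale in the combination than in CSF1Ri (adjusted p = 0.0337), but it was called in only 2 of 12 fits that left out a library each. Marcksl1 was 1.04 ± 0.21 higher (adjusted p = 0.0361), called in 3 of those 12 fits. Of the 10 pairwise calls of list genes made with all 12 libraries, those of Cd40, Tnfsf9, Klf4, Irf8, Ciita and Cytip included, 0 were made when only the libraries of the groups compared were fitted, and 9 were made without the pair of libraries that stand apart, the exception being Marcksl1.

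Of 12 cDC2 genes, 2 were called in the combination versus Control, where 0.774% of all genes were. With the pair of libraries that stand apart left out 4 were called, where 1.39% of genes were: Klf4 and Tnfsf9, with Cd7, at 1.52 ± 0.28, and Mgl2, a lectin of dermal dendritic cells and macrophages, at 1.76 ± 0.21 on the log2 scale (adjusted p = 0.0352 and 0.0085). Mgl2 was not particular to the combination. It was then also called higher with the CD40 agonist than in Control (0.228% of genes called). Against CSF1Ri it was called higher in the combination (3.8%) and with the CD40 agonist (3.01%). The left-out combination replicate 2 held its lowest level of the 12 libraries, 8.24 TPM. Tnfsf9, the ligand of 4-1BB, which co-stimulates T cells, stood at 130.3, 50 and 105 TPM in the combination, 59.6, 38.6 and 24.9 TPM with the CD40 agonist, 17.7, 15.8 and 6.8 TPM with CSF1Ri and 20.1, 11.2 and 19.2 TPM in Control. The combination lay above both CSF1Ri and Control in every library, replicate 2 included. The share of all genes with the combination higher in this way is not given here. In the lower direction it was 16.9% against CSF1Ri and 17.1% against Control. Tnfsf9 was 2.68 ± 0.48 higher than in Control and 2.99 ± 0.49 higher than in CSF1Ri on the log2 scale (adjusted p = 0.0362 and 0.0181), called in 4 and 9 of the 12 fits that left out a library.

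Klf4, a transcription factor needed for part of the cDC2 lineage and also used by monocytes and macrophages, stood at 39.3, 39.4 and 38.8 TPM in the combination, 79.2, 71.6 and 84 TPM with the CD40 agonist, 43.3, 54.2 and 45.5 TPM with CSF1Ri and 75.8, 73 and 79.4 TPM in Control. Both groups given CSF1Ri lay below both groups without it in every library. Taken singly, CSF1Ri lay below Control in 8.01% of all genes, and the combination below the CD40 agonist in 9.43%. With all libraries Klf4 was called in neither of these 2 comparisons, where 0.0125% and 0% of all genes were. Without the pair of libraries that stand apart, Klf4 was called lower in CSF1Ri versus Control (2.03% of genes called). Klf4 fell by 0.78 on the log2 scale in the combination versus Control (SE 0.12, adjusted p = 0.0196) and was 0.80 ± 0.12 higher with the CD40 agonist than with CSF1Ri (adjusted p = 0.019), each called in 8 of the 12 fits that left out a library.

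Among 14 cDC1 genes 1 was called, in the combination versus CSF1Ri, where 1.94% of all genes were: Irf8, a transcription factor of cDC1 and monocyte lineages, at 0.77 ± 0.16 on the log2 scale (adjusted p = 0.0402), called in 1 of the 12 fits that left out a library. There 2 were called without the pair of libraries that stand apart (Irf8 and Cadm1), against 3.8% of genes. Among 10 genes shared by conventional dendritic cells 2 were called in the same comparison, and 4 without that pair (with Zbtb46 and Flt3). Ciita, the master regulator of MHC class II genes, was 1.12 ± 0.20 higher (adjusted p = 0.0249, called in 9 of those 12 fits), and Cytip, a regulator of cell adhesion, fell by 0.61 (SE 0.13, adjusted p = 0.0397, called in 1 of 12). Without that pair, genes of these 2 lists were also called in other comparisons. Id2 and Irf8 were higher in the combination versus Control (1.39% of all genes called), and Irf8 in the interaction (0.397%). In CSF1Ri versus Control (2.03%) Cadm1 and Nfil3 were called, 1 higher and 1 lower, and Zbtb46 was lower. In the CD40 agonist versus CSF1Ri (3.01%) Cadm1, Irf8, Zbtb46, Itgax and Flt3 were higher. The 14 plasmacytoid genes gave 0 calls in each comparison with all libraries. Without that pair 13 were tested and 1 was called (Ly6d, in the combination versus CSF1Ri, against 3.8% of genes). The median log2 fold change of the plasmacytoid list was 0.01 in the combination versus Control and -0.37 in CSF1Ri versus Control.

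Partners of the members were measured in the same libraries. Flt3l, the ligand of Flt3, stood at 14.9, 18.6 and 19.2 TPM in the combination and 9.39, 16.4 and 18.5 TPM in Control, and its log2 fold change of 0.51 ± 0.43 did not pass (adjusted p = 0.639). Xcl1, the ligand of Xcr1, stood at 4.45, 5.58 and 6.43 TPM with CSF1Ri and 24.2, 17.4 and 17.5 TPM in Control, groups that did not overlap, with a log2 fold change of -1.85 ± 0.50 (adjusted p = 0.261). CSF1Ri lay below Control in this way in 8.01% of all genes. Cdh1, the ligand of Itgae, stood at 56.5, 59.6 and 87.2 TPM with the CD40 agonist and 7.19, 11 and 18.1 TPM in Control, also without overlap, at 2.60 ± 0.61 (adjusted p = 0.358). The CD40 agonist lay above Control in this way in 6.57% of all genes. Cdh1 was, without the pair of libraries that stand apart, called higher than in Control in the combination (2.52 ± 0.40), with the CD40 agonist (2.60 ± 0.38) and with CSF1Ri (1.98 ± 0.39), with adjusted p values of 0.0238, 0.0304 and 0.04. All genes were called at 1.39%, 0.228% and 2.03% in those comparisons. Ccl19 and Ccl21a have near-identical copies among which reads can be divided, and their levels of 0 to 10.7 and 0 to 17.6 TPM are uncertain.

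Cd40, the receptor that the antibody engages, stood at 266, 168 and 241 TPM in the combination, 106, 119 and 124 TPM with the CD40 agonist, 64, 61.8 and 121 TPM with CSF1Ri and 145, 102 and 182 TPM in Control. The combination lay above CSF1Ri in every library, a pattern whose share over all genes is not given here (16.9% in the lower direction). In replicate 2 Cd40 did not share the low level of Ccr7 and Fscn1. It was 1.66 ± 0.27 higher in the combination than in CSF1Ri on the log2 scale (adjusted p = 0.0181, called in 9 of the 12 fits that left out a library). Leaving out the pair of libraries that stand apart, Cd40 was called in 5 of the 7 comparisons with a fold change, all but the CD40 agonist versus Control and the combination versus the CD40 agonist. In those 5 comparisons 0.397% to 3.8% of all genes were called.

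Langerhans cells, the antigen-presenting cells of the epidermis, are marked by Cd207 and Epcam, and the list used here also held Cd24a, which other cells express. The libraries do not show which cells carried any of these RNAs. Cd207 stood at 7.43, 0.108 and 15.4 TPM in the combination, 51.4, 82.4 and 122 TPM with the CD40 agonist, 0, 0.0354 and 1.69 TPM with CSF1Ri and 6.54, 3.61 and 7.13 TPM in Control. Epcam stood at 14.1, 0.55 and 17 TPM in the combination, 21, 22.4 and 33.6 TPM with the CD40 agonist, 0.0241, 0.348 and 1.44 TPM with CSF1Ri and 2.28, 6.11 and 4 TPM in Control. For both genes the CD40 agonist libraries lay above all others and the CSF1Ri libraries below Control. Over all genes, the CD40 agonist lay above Control in 6.57% and above CSF1Ri in 8.93%, and CSF1Ri below Control in 8.01%. Cd24a went the other way with CSF1Ri, at 149, 82.5 and 185 TPM there against 60.6, 64.3 and 34.1 TPM in Control, and it carried the list's summed level, which was 82.9 to 188 TPM with CSF1Ri and 45.2 to 74.1 TPM in Control. The log2 fold changes of Cd207 were 3.96 ± 1.34 for the CD40 agonist versus Control and 7.23 ± 1.60 versus CSF1Ri, with adjusted p values of 0.556 and 0.0802. Fitted without the pair of libraries that stand apart, Cd207 was called higher with the CD40 agonist than in Control (adjusted p = 0.0204) and than with CSF1Ri (adjusted p = 0.00077), higher in the combination than in CSF1Ri (adjusted p = 0.00444) and lower in CSF1Ri than in Control (adjusted p = 0.00398). No fold is given against CSF1Ri there, since its remaining libraries held almost no Cd207 counts. In the comparisons that called Cd207, in the order given, all genes were called at 0.228%, 3.01%, 3.8% and 2.03%. Itgae was highest in the CD40 agonist group, and the part of the Langerhans markers in its values was not tested.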

How the data were processed

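RNA was measured in 12 samples, 3 per group, from mouse melanomas. Per the labels' protocols, unstranded libraries were prepared with 50 ng of input RNA and sequenced as paired 75-bp reads. Per the submitters' processing notes the tools were STAR, HTSeq and DESeq2, on mm10. The deposited files hold, per the file headers, an estimated count and a TPM value for each transcript, a layout that HTSeq does not write; the sources used here do not name the quantifier. The mouse genotype is not reported here in full.

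Of 111462 transcripts, 98.9% matched GENCODE M21 (GRCm38), and unmatched ones held 0.378% to 0.436% of the counts. The deposited estimated counts and TPM values were summed per gene, and the counts rounded. The 12 libraries were fitted together by group in edgeR 4.0.16 (TMM scaling, filterByExpr, 16027 genes including all 10 members, quasi-likelihood F-tests, 8 residual degrees of freedom), a procedure checked on simulated data. Adjusted p values are Benjamini-Hochberg values over all genes. No label states that the pools of a group were kept or processed separately, so p values cover only the variation among these samples, which may be technical in part. The members and lists were chosen with earlier results of these data known. Named genes are the 10 members, list genes with an adjusted p below 0.05, the members' ligands, and the 3 genes most like each member. Clec1b and Haspin, which overlap members, are named too. Cd68, C1qc, Plac8, Ly6c2, Ccr2 and Cd24a are named as examples of levels in the lists, whether or not they were called. The Langerhans markers Cd207 and Epcam were named after their values were seen. Alternatives were other scalings and filters, DESeq2 1.42.0, limma 3.58.1, TPM fits, each library left out, and a replicate block.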

Additional observations from a re-analysis of the deposited data

How the results depend on the processing

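Each of the settings that kept all libraries (2 other scalings, no filter on low counts, bias-adjusted edgeR, limma voom, 2 fits on log2 TPM, DESeq2, only the groups compared, and a replicate block) called 0 members in each comparison it could give. The fit with the replicate block called 0 members, and same-numbered libraries did not deviate together (r -0.0614 to 0.0603 over 18 pairs), so the block was not used. Leaving out each library in turn gave 0 to 1 members called in the combination versus CSF1Ri (Ccr7, without combination replicate 2) and 0 in the other comparisons. Without both libraries that stand apart, 3 members were called in CSF1Ri versus Control, 4 in the combination versus CSF1Ri, 4 in the CD40 agonist versus CSF1Ri, 2 in the interaction and 3 in the test of any difference, and Flt3 in the combination versus CSF1Ri stood at 1.03 against -0.18 with all libraries; the cause was not tested. Over all genes, counts of calls moved more: DESeq2 called 933 genes in the combination versus Control against 124, 408 in CSF1Ri versus Control against 2, 194 in the CD40 agonist versus Control against 0 and 275 in the combination versus the CD40 agonist against 0, and over all settings the counts ran from 0 to 1486 in the combination versus CSF1Ri (311), 0 to 963 in the CD40 agonist versus CSF1Ri (62), 0 to 178 in the interaction (0) and 13 to 1692 in the test of any difference (193).

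Depth limits Clec9a and Siglech most, with 0 to 163 and 5 to 175 counts per library. Ccr7 and Fscn1 had at least 2315 and 1277 counts in every library. The labels used here do not tie libraries to a lane or a day, so the part of these in the libraries that stand apart was not tested.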
